A study of Sus scrofa with 9 samples.

Results

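Polyamines (putrescine, spermidine and spermine) are small positively charged molecules that bind nucleic acids and are needed for cell growth. Ornithine decarboxylase, ODC1, makes putrescine, and AMD1 supplies the decarboxylated S-adenosylmethionine from which the synthases SRM and SMS take an aminopropyl group to build spermidine and then spermine. SAT1, the spermidine/spermine acetyltransferase, acetylates polyamines for oxidation or export. The antizymes OAZ1, OAZ2 and OAZ3 bind ODC1 and inhibit it. OAZ3 is known as the testis antizyme of haploid germ cells.

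The 8 genes SAT1, ODC1, AMD1, SRM, SMS, OAZ1, OAZ2 and OAZ3, of the 7386 genes named on the array, were followed in testis biopsies of boars. Probes were taken as members where the gene symbol of the array annotation, or the symbol in brackets in its description, was 1 of these names. This gave 22 of the 60889 probes: 7 for SAT1, 5 for OAZ1, 2 each for SRM, SMS, OAZ2 and OAZ3, and 1 each for ODC1 and AMD1. SAT1 was proposed because its signal was higher in the t(1;14) boar than in the controls, so no p-value is given for that comparison or for SAT1 on the t(1;14) arrays. Calls there are counted as a description, beside the share of all probes called. The other members and the gene lists were also chosen with earlier results of these data known. Their p-values against oligospermic rest on the same t(1;14) arrays, so they are not independent of that choice. A further 8 probes matched the same genes by transcript or by a shared sequence. They lie outside the rule and are named as such where used. Of these 6 were tested, since a probe of SRM and a probe of SMS were not well above background on any array.

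Total RNA was labelled with 1 dye and measured on porcine Agilent oligonucleotide arrays, with 3 arrays in each of 3 groups. The control arrays hold testis of fertile boars with a normal karyotype and normal semen. The oligospermic arrays hold testis with a normal karyotype and a low sperm count. The t(1;14) arrays hold testis of a Landrace × Duroc boar, oligo-astheno-teratospermic (few, poorly moving and malformed sperm), with a balanced reciprocal translocation between chromosomes 1 and 14. The labels name no treatment. The t(1;14) boar is described as young, and ages in figures are not given in the sources used here. The t(1;14) arrays are separate samples of 1 boar. The labels give independent biopsies for the oligospermic group without a number of animals, and the sources do not say which control boar each control array holds. Each test therefore compares arrays, and p-values measure the spread between these samples, which may be technical. Each of the 3 slides held 1 array of every group.

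The number of probes well above background lay between 37087 and 40632 on the 9 arrays, and between 52 and 275 were saturated. All 22 member probes were well above background on all 9 arrays. Defining markers of the testis were present in each group, among them the spermatid genes PRM1 and TNP2, the Leydig cell gene CYP17A1 and the Sertoli cell gene SOX9. Signals below are log2 values after quantile normalization of the 9 arrays. The level of a probe also depends on its sequence, so signals are compared between groups and not between probes. A probe was called differential at a limma adjusted p of at most 0.01 with an absolute log2 difference of at least 2. It is said to pass the test at that adjusted p alone. These fits leave the slide out, except where it is named as a block.

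The SAT1 probes do not all measure independently. The probes that start at bases 419, 426, 440 and 444 of their annotated transcripts overlap, and they are shown because 4 of the 7 SAT1 values come from this 1 stretch. Capitals mark the run of 35 bases that all 4 share, and the lower case flanks are not identical between them.
SAT1 base 419: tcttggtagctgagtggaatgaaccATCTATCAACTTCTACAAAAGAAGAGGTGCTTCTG
SAT1 base 426: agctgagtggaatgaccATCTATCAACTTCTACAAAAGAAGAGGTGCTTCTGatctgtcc
SAT1 base 440: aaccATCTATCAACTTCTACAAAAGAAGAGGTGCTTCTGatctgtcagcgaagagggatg
SAT1 base 444: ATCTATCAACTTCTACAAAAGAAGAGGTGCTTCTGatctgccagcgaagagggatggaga

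The SAT1 probe of highest signal starts at base 494. A probe outside the rule, named by a RefSeq transcript, carries the same 60 bases and so is a repeat spot, as the capitals mark.
SAT1 base 494 and its repeat spot: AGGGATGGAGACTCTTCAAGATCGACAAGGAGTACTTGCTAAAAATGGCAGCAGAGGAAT

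The OAZ3 probes lie apart on the transcript, share no run of 20 bases and are shown because the probe at base 88 has the largest decrease among the member probes. They hold no capitals, since nothing is compared.
OAZ3 base 88: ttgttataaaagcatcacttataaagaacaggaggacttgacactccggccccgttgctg
OAZ3 base 451: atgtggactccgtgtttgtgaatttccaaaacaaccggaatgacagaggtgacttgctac

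The OAZ1 probes at bases 874 and 905 share 30 bases and are not shown. The OAZ1 probes at bases 336 and 343 share 47 bases, in capitals, and are shown because 2 of the 5 OAZ1 values rest on this stretch.
OAZ1 base 336: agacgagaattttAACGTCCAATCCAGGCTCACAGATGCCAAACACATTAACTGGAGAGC
OAZ1 base 343: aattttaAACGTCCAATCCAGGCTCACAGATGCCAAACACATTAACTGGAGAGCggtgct

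All sequences are those of the array design as the scanner files list them. In the RefSeq gene table of Sscrofa11.1, SAT1 and SMS are on chromosome X, AMD1 and OAZ2 on chromosome 1, OAZ1 on 2, ODC1 on 3, OAZ3 on 4 and SRM on 6.

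SAT1, the acetyltransferase, was higher in the t(1;14) boar on each of its 7 probes. On the probe at base 494, the t(1;14) arrays read 13.85, 13.83 and 13.97, the control arrays 11.25, 11.72 and 11.18, and the oligospermic arrays 11.32, 11.50 and 11.24. The 3 t(1;14) arrays thus lay above the other 6, and the control and oligospermic arrays overlapped. The group means were 13.88 ± 0.07, 11.38 ± 0.30 and 11.35 ± 0.13 in that order (SD, n = 3 arrays). The t(1;14) mean was 2.50 log2 units above the control mean, a 5.66-fold difference, and 2.53 above the oligospermic mean, a 5.77-fold difference. These 2 comparisons share the t(1;14) arrays.

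The repeat spot gave 13.94 ± 0.07, 11.40 ± 0.14 and 11.39 ± 0.13, a difference of 2.54 from control, so both spots of this sequence gave nearly the same values. On the 4 overlapping probes the log2 difference from control lay between 2.28 and 2.42. The probe at base 241 differed from control by 2.04, from 10.35 ± 0.10 to 12.39 ± 0.05. The probe at base 1679 was much dimmer and more variable: the t(1;14) arrays read 8.30, 8.76 and 8.72, the controls 6.91, 6.36 and 5.86, and the oligospermic arrays 7.10, 6.76 and 6.25. It still differed from control by 2.22, and its 3 t(1;14) arrays lay above the other 6. Over the 7 probes the difference from control ran from 2.04 to 2.50 (4.10- to 5.66-fold), and that from oligospermic from 1.89 to 2.53. Within each slide the difference between t(1;14) and control was above 0 on each SAT1 probe, from 1.85 to 2.68.

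**Figure D1:**
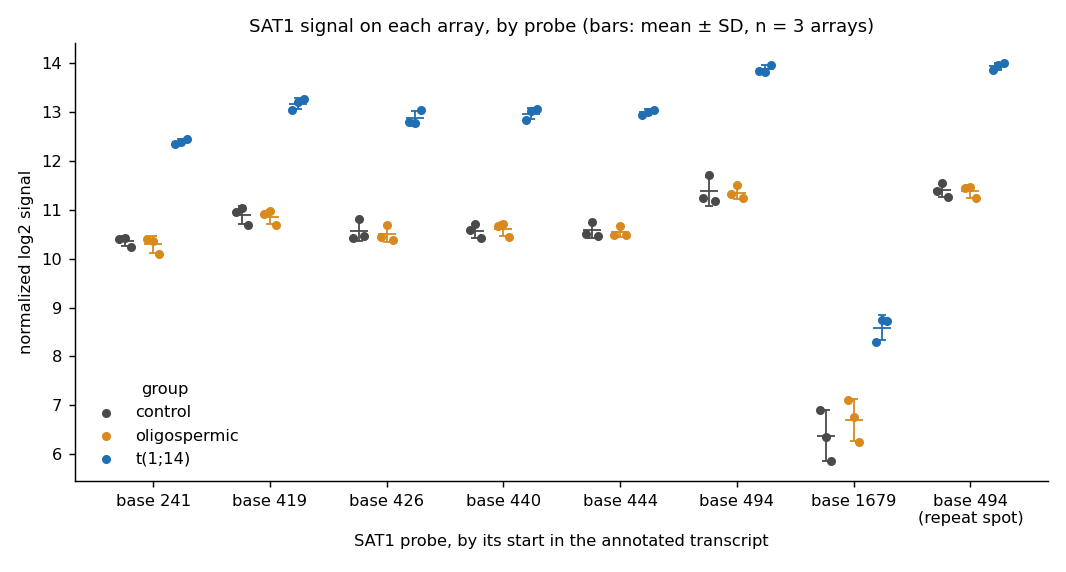
Normalized log2 signal (vertical axis) of SAT1 on each array, for the 7 member probes and the repeat spot of base 494 (horizontal axis, by start in the transcript). Points are arrays and bars the mean ± SD of 3 arrays; on every probe the t(1;14) points lie above the control and oligospermic points, which overlap.

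All 7 SAT1 probes were differential in t(1;14) against control, and no other member probe was. With the arrays scaled to their 75th percentile, the SAT1 probe at base 241 fell below the fold threshold (1.90) and the OAZ3 probe at base 88 passed it (-2.02). With normexp background correction 5 SAT1 probes were differential, without those at bases 241 (1.98) and 1679 (1.51). Of all 40643 probes tested in that comparison, 5.61% were differential, 1.31% as higher. In t(1;14) against oligospermic, 6 of the 7 SAT1 probes reached both thresholds, where 6.82% of 40567 probes did, 1.93% as higher. The probe left out was that at base 1679, with a difference of 1.89. SAT1 was chosen on these arrays, and nothing is read from these counts.

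The comparison that the choice of SAT1 did not use is oligospermic against control. There the base 494 probe differed by -0.03 log2 units (95% interval -0.47 to 0.41, limma adjusted p = 0.986). The largest SAT1 difference was 0.33 at base 1679 (95% interval -0.45 to 1.11, adjusted p = 0.835), and the others lay between -0.06 and 0.04. Within the slides the base 1679 difference ran from 0.19 to 0.40 (limma adjusted p = 0.385 with the slide as a block). No SAT1 probe passed the test. The intervals of the 6 brighter probes leave out a change of the size seen in the t(1;14) boar, and that at base 1679 also ends below it.

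ODC1, which makes putrescine, was lower in the t(1;14) boar. Its member probe, taken from an expressed sequence tag, read 14.82, 14.92 and 14.78 on the t(1;14) arrays, 15.56, 15.40 and 15.49 on the control arrays, and 15.62, 15.40 and 15.21 on the oligospermic arrays. All t(1;14) values lay below all others. The difference was -0.64 from control and -0.57 from oligospermic (95% interval -0.87 to -0.26, limma adjusted p = 0.0076). This last call is close to the threshold: without oligospermic array 1 or 2, or without any 1 of the t(1;14) arrays, it no longer passed, at differences between -0.46 and -0.61. A pair of probes outside the rule, of which 1 shares 45 bases with the member probe, differed from oligospermic by -0.66 and -0.61 (adjusted p = 0.0061 and 0.0018).

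AMD1 gave probes that disagreed. Its member probe, at base 1616, read 7.63, 7.77 and 7.63 in t(1;14), 8.85, 9.18 and 8.50 in controls, and 9.03, 8.89 and 8.95 in oligospermic. The t(1;14) arrays were again the lowest, by -1.16 from control and by -1.28 from oligospermic (95% interval -1.50 to -1.05, adjusted p = 7.4e-05). A probe outside the rule, linked to AMD1 by transcript, read 12.44 ± 0.04 in t(1;14), 12.29 ± 0.04 in controls and 12.41 ± 0.11 in oligospermic. It differed from oligospermic by 0.03 (95% interval -0.20 to 0.26, adjusted p = 0.804). A decrease of AMD1 was therefore seen on 1 of 2 probes.

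SRM, spermidine synthase, did not pass the test in t(1;14) against oligospermic. Its probe at base 580 read 10.07, 10.03 and 9.94 in t(1;14), 10.42, 10.46 and 10.31 in controls, and 10.16, 10.26 and 10.43 in oligospermic. These t(1;14) values lay below the others, by -0.38 from control and -0.27 from oligospermic (95% interval -0.53 to -0.01, adjusted p = 0.0615). The probe at base 3697 overlapped between the groups, with a difference of 0.04 from oligospermic (95% interval -0.28 to 0.36).

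SMS, spermine synthase, rose on both of its probes against oligospermic. At base 1284 the t(1;14) arrays read 10.14, 9.95 and 10.20, the controls 9.10, 9.24 and 9.53, and the oligospermic arrays 9.31, 9.52 and 9.39. All 3 t(1;14) values lay above the other 6. The difference from oligospermic was 0.69 (95% interval 0.42 to 0.96, adjusted p = 0.0020) and that from control 0.80. The base 1001 probe differed from oligospermic by 0.86 (95% interval 0.51 to 1.20, adjusted p = 0.0024). A probe outside the rule with the same 60 bases as base 1284 differed from that spot by between -0.06 and 0.18 on the 9 arrays. Without t(1;14) array 1 or 3, the base 1284 difference of 0.67 or 0.64 no longer passed.

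SAT1 and SMS, the members on chromosome X, were both higher in the t(1;14) boar. AMD1 and OAZ2, on the translocated chromosome 1, had their member probes lower, as did ODC1 and OAZ3 on other autosomes. The AMD1 probe outside the rule differed from oligospermic by 0.03. Of the remaining autosomal members, OAZ1 on chromosome 2 was 0.20 to 0.44 above oligospermic, and SRM on chromosome 6 did not pass. The part of chromosome position in these values was not tested.

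The antizymes went in different directions. OAZ3 fell: at base 88 the t(1;14) arrays read 13.15, 13.10 and 13.14, the controls 15.11, 14.98 and 14.88, and the oligospermic arrays 15.02, 15.05 and 15.12. The t(1;14) arrays lay well below the other 6, and the control and oligospermic arrays overlapped. The difference was -1.93 from oligospermic (95% interval -2.14 to -1.73, adjusted p = 1.9e-05) and -1.86 from control, a level 3.82-fold and 3.64-fold lower. At base 451 the difference from oligospermic was -1.10 (95% interval -1.35 to -0.86, adjusted p = 1.9e-04). That spot was saturated on 2 of 3 control and 2 of 3 oligospermic arrays and on 0 of 3 t(1;14) arrays, so its control and oligospermic signals can be too low.

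OAZ2, a broadly expressed antizyme, fell as well. At base 378 the t(1;14) arrays read 9.90, 9.73 and 9.80, the controls 11.22, 11.28 and 11.00, and the oligospermic arrays 11.02, 10.98 and 11.26. Again the t(1;14) arrays lay below all others, by -1.27 from oligospermic (adjusted p = 1.6e-04) and -1.36 from control. The base 890 probe gave -0.86 (adjusted p = 7.5e-04) and a probe outside the rule -2.05 (adjusted p = 1.9e-04).

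OAZ1, the main antizyme of most tissues, differed little. The 5 probes were between 0.20 and 0.44 log2 units above oligospermic and between 0.20 and 0.39 above control. Those at bases 343 (0.38, 95% interval 0.17 to 0.58, adjusted p = 0.0083) and 639 (0.41, 95% interval 0.22 to 0.61, adjusted p = 0.0042) passed the test, and the other 3 did not. With the slide as a block the probe at base 343 no longer passed (adjusted p = 0.0121), and that at base 874 newly did (0.44, adjusted p = 0.0073). The median of all probes tested was itself 0.14 above oligospermic, which leaves 0.24 and 0.27 for these 2 probes.

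**Figure D2:**
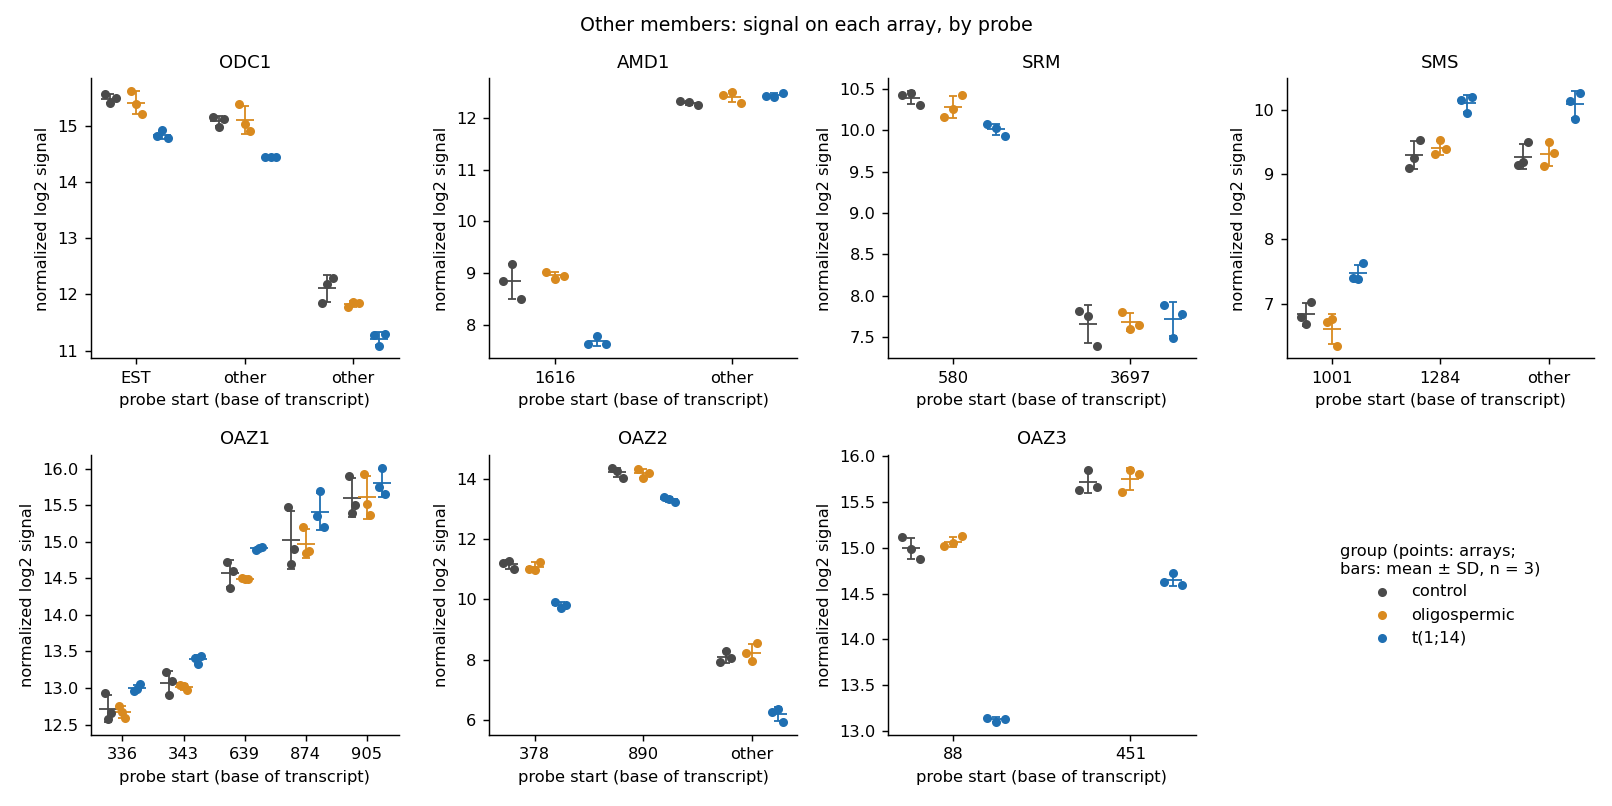
Normalized log2 signal (vertical axis) on each array for the other 7 members, by probe (horizontal axis, by start in the transcript; EST, the ODC1 probe from an expressed sequence tag; other, probes outside the rule). Points are arrays and bars the mean ± SD of 3 arrays; OAZ2 and OAZ3 lie lower and SMS higher in t(1;14), while the AMD1 probes differ from each other.

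Among the 15 member probes of genes other than SAT1, 10 (66.7%) passed the test in t(1;14) against oligospermic, 4 as higher and 6 as lower. Of all probes tested in that comparison 49.1% passed, 27.1% as higher and 22% as lower. The median difference of the 15 probes was 0.04, against 0.14 over all probes. In t(1;14) against control, 7 of the 15 passed, 1 as higher and 6 as lower, where 31.2% of all probes did, 15.6% as higher and 15.6% as lower. Over all 22 probes, 12 lay wholly above and 7 wholly below the control arrays, where 62% of all probes did not overlap, 35.8% as higher and 26.2% as lower, and nothing is read from this. The counts were the same against oligospermic, where 70.9% did not overlap, 40.7% as higher and 30.2% as lower.

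No member passed the test in oligospermic against control. By limma 0 of the 22 probes passed the test and 0 had an unadjusted p under 0.05, where 0.0755% and 9.84% of all 39713 probes did. The differential calls were likewise 0 of 22, against 0.073% of all probes. The 22 differences lay between -0.22 and 0.33, with adjusted p between 0.763 and 0.997. On each of the 22 probes the 2 groups overlapped, where 15.7% of all probes did not. A miss of the threshold does not show that the groups are alike: for OAZ3 at base 88 the interval was -0.22 to 0.36, for ODC1 -0.42 to 0.27 and for AMD1 -0.34 to 0.57.

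**Figure D3:**
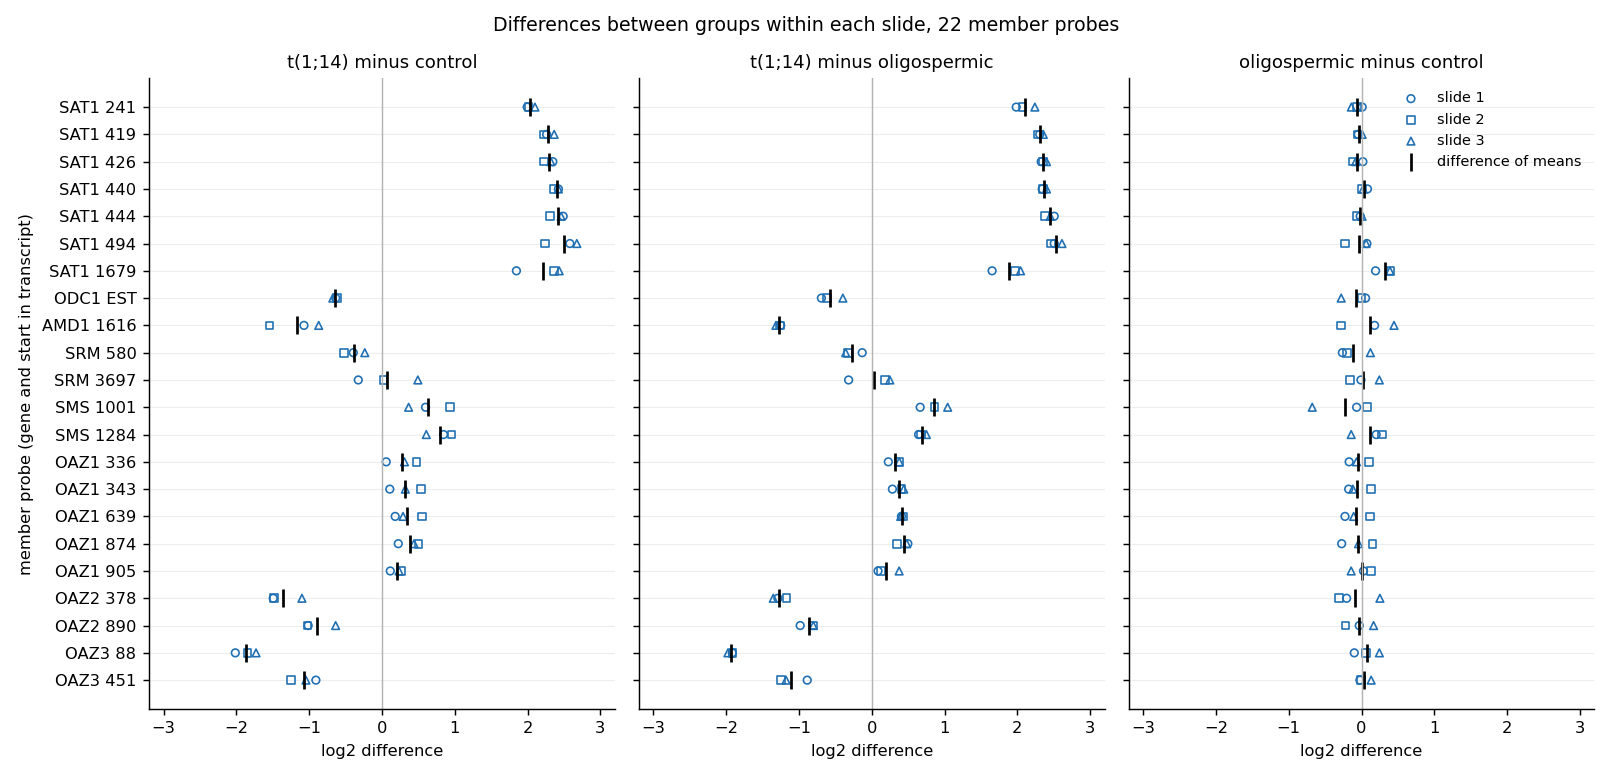
Log2 differences (horizontal axis) between the arrays of each slide (symbols) and between group means (bars) for the 22 member probes (vertical axis), in 3 comparisons. In both t(1;14) comparisons 21 of the 22 probes kept 1 sign on the 3 slides, and in oligospermic against control 2 did. Of all probes tested, 75.9% did so in t(1;14) against control, 84.8% against oligospermic and 36.1% in oligospermic against control.

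Other genes of polyamine metabolism were taken from lists of 30 genes. Of these 17 have a named probe on the array and 15 were tested; ARG1 and SLC22A3 were not well above background on any array. None of the 4 genes of hypusine formation, where spermidine is used to modify a translation factor, has a named probe. By the probe of highest signal, 6 of the 15 genes were higher and 4 lower in t(1;14) against oligospermic, where 49.1% of all probes passed. In t(1;14) against control 3 were higher and 4 lower, where 31.2% passed. These 7 became 4 without t(1;14) array 1 and 2 without t(1;14) array 3. The median difference was 0.24 and 0.11 in that order, against 0.14 over all probes in each. By limma 0 passed in oligospermic against control, and 2, SAT2 and SLC7A2, had an unadjusted p under 0.05, where 9.84% of all probes did.

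Next to SAT1 in the back-conversion and oxidation list stood its relative SAT2 and the diamine oxidase AOC1. SAT2 read 9.24, 9.08 and 9.13 in t(1;14), 8.63, 8.59 and 8.24 in controls and 8.09, 8.06 and 8.15 in oligospermic. Its rise of 1.05 from oligospermic passed (95% interval 0.83 to 1.27, adjusted p = 1.5e-04). AOC1, which oxidizes putrescine, fell by 2.66 from oligospermic (95% interval of the difference -3.31 to -2.01, adjusted p = 2.7e-04), reading 4.60, 4.30 and 4.48 against 6.53, 7.24 and 7.59. Both genes separated the t(1;14) arrays from the others, and in opposite directions.

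The antizyme inhibitors bind antizyme in place of ODC1. AZIN2, which is known for its expression in haploid germ cells and is listed as SADC in the array annotation, read 9.83, 9.89 and 9.79 in t(1;14), 12.09, 12.07 and 11.79 in controls and 12.04, 11.97 and 12.10 in oligospermic. It fell by 2.20 from oligospermic (95% interval of the difference -2.41 to -1.98, adjusted p = 1.9e-05), and both of its probes passed. AZIN1 rose by 0.74 on its brightest probe (adjusted p = 0.0015), but of its 6 probes 2 passed as higher and 1 as lower. AZIN2 and OAZ3, its antizyme counterpart of haploid cells, were thus lower together, while the AZIN1 probes disagreed.

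ARG2, the mitochondrial arginase that yields ornithine, fell by 1.44 from oligospermic (adjusted p = 4.4e-04) on the brighter of 2 tested probes, both of which passed. The arginine transporter SLC7A2 fell by 0.96 (adjusted p = 0.0020), yet differed from control by -0.08, since the oligospermic arrays read 7.67 to 8.15 and the controls 6.83 to 7.24. OAT (0.31) and the transporter SLC7A1 (0.24) did not pass on their brightest probes, though 2 of 10 OAT probes and 1 of 2 SLC7A1 probes passed as lower.

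Of 5 tested genes that supply S-adenosylmethionine or salvage the methylthioadenosine left by SRM and SMS, 3 were higher and 0 lower against oligospermic, where 27.1% of all probes were higher. Against control 2 were higher and 1, MAT1A, lower, at a difference of -0.85, where 15.6% of all probes were higher and 15.6% lower. MAT2B, a subunit of the synthetase, rose by 1.17 (adjusted p = 1.4e-04) with 1 of 2 probes passing. The salvage enzymes MTAP and APIP rose by 0.96 (adjusted p = 0.0029) and 0.97 (adjusted p = 0.0031). MAT1A (-0.62) and ADI1 (-0.10) did not pass. Of the transport list, SLC3A2, the heavy chain of amino acid exchangers that has been tied to polyamine export, rose by 0.96 (adjusted p = 2.3e-04), and SLC18B1, a vesicular polyamine transporter, differed by -0.50 on its brighter probe (adjusted p = 0.0309), while 1 of its 2 probes passed as lower.

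**Figure D4:**
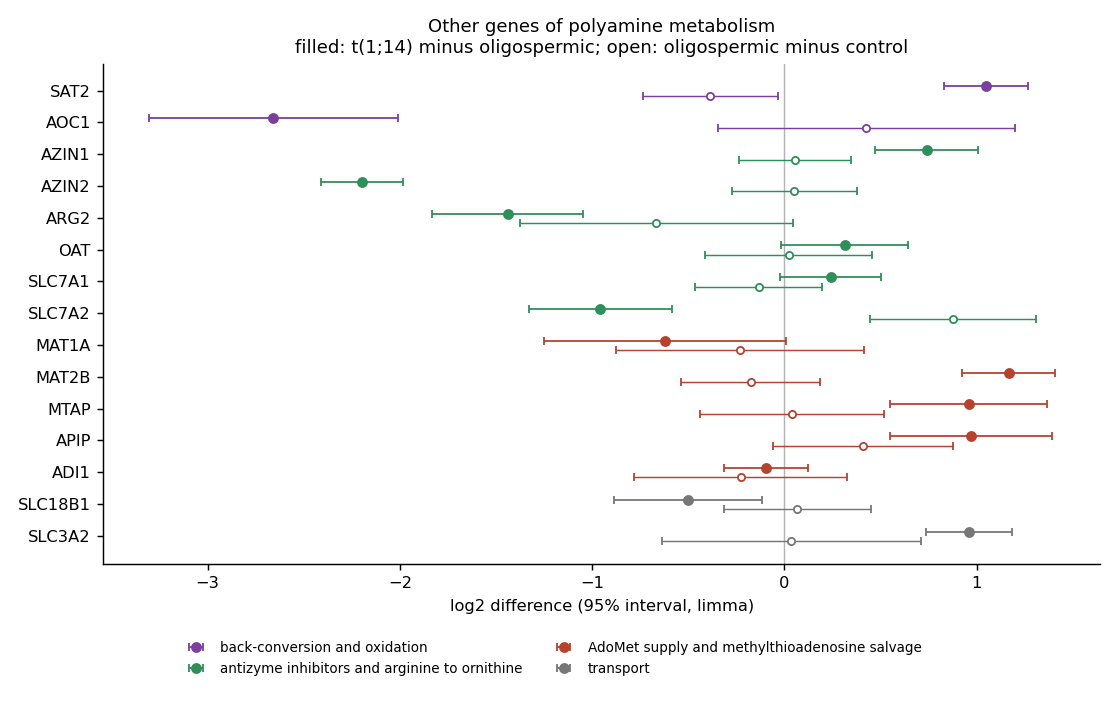
Log2 differences with 95% intervals from limma (horizontal axis) for the 15 tested genes of other polyamine lists (vertical axis, coloured by list). Filled points, t(1;14) minus oligospermic, lie furthest from 0 for AOC1 and AZIN2; open points, oligospermic minus control, did not pass the test for any gene.

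In biopsies, fewer cells of a type and less RNA per cell cannot be told apart. Markers of some cell types, like some members, differed on the t(1;14) arrays. Their counts stand beside 15.6% of all probes as higher and 15.6% as lower in t(1;14) against control, and 27.1% and 22% against oligospermic. Of 9 spermatid markers on the array, 0 were higher and 7 lower in t(1;14) against control and the same against oligospermic, with median differences of -1.63 and -1.62. Their mean signal per array was 12.9 to 13.0 in t(1;14), 14.4 to 14.6 in controls and 14.5 in oligospermic. The tail protein ODF1 differed from control by -2.52. The protamine PRM1 was saturated on all 9 arrays, PRM2 on 6 and TNP2 on 4, so the list mean can understate the difference. Over the 6 spermatid markers saturated on no array, a choice made after the values were seen, the t(1;14) arrays lay at -2.12 to -2.08 relative to the control mean. The OAZ3 probe at base 88, which was not saturated, lay at -1.89 to -1.84, and that at base 451 at -1.12 to -0.99.

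Of 9 Leydig cell markers, 7 were higher in t(1;14) against control and 6 against oligospermic, and 0 lower in either. Their mean signal was 11.8 to 12.0 in t(1;14), 9.74 to 10.04 in controls and 9.96 to 10.27 in oligospermic. STAR, which carries cholesterol into mitochondria, was 3.72 higher than in controls. SAT1 stood at 2.20 to 2.40 relative to controls over its 7 probes, and the Leydig list at 1.90 to 2.08, or at 2.09 to 2.29 without INSL3, which was saturated on 3 arrays.

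The other lists moved less or in both directions. Against oligospermic, 6 of 7 macrophage and other immune markers were higher and 0 lower, and against control 1 and 0. Of these 6, CD3E and CD86 were not well above background on any oligospermic array, so they entered the test through the t(1;14) arrays and their levels there were at least 1.72-fold and 1.52-fold higher. The spermatocyte list gave 3 higher and 1 lower of 5 against oligospermic, and 2 and 1 against control. Its member SPO11, which makes meiotic DNA breaks, differed from oligospermic by 1.11 and from control by -1.03. The spermatogonium list gave 3 and 1 of 6 tested, the Sertoli list 1 and 2 of 7, and the peritubular and vascular list 3 and 2 of 7 tested, all against oligospermic. GFRA1 of the spermatogonium list and COL1A1 of the peritubular list were not well above background on any array. By limma 0 of 49 tested markers passed in oligospermic against control, and 9 had an unadjusted p under 0.05, where 0.0755% and 9.84% of all probes did. Among the 9 was SPO11 with a difference of -2.14 (adjusted p = 0.0363). The others were LDHC, KIT, FSHR, C1QA and, of the Leydig list, CYP11A1, HSD3B1, LHCGR and RLN2. Differences of the Leydig list in that comparison ran from -0.38 to 1.24, with a median of 0.08. The part of the cell types in the values of SAT1, OAZ3 and the other members was not tested.

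**Figure D5:**
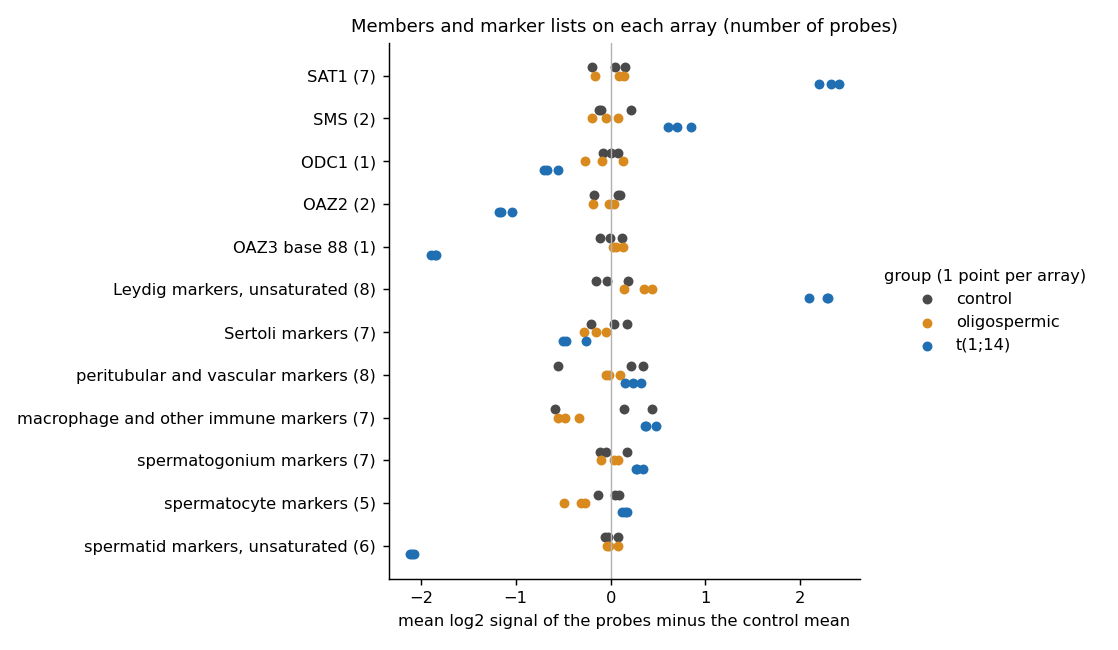
Mean log2 signal of each set relative to its control mean (horizontal axis), 1 point per array, for 5 members and 7 marker lists (vertical axis, with the number of probes; probes saturated on any array are left out). SAT1 and the Leydig markers lie right of 0 in t(1;14), and OAZ2, OAZ3 and the spermatid markers left of 0.

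Genes with a pattern like that of SAT1 were sought among the 6082 other named genes that passed the filter on dim probes, as the smallest root mean square difference of the centred log2 values over the 9 arrays. They were GSR, glutathione reductase (0.160), SELENBP1, a selenium-binding protein (0.186), CYP17A1, which makes androgen precursors and is in the Leydig list (0.194), SULT2A1, a steroid sulfotransferase (0.203), and GGTA1P (0.221). GSR read 8.81 in controls, 8.61 in oligospermic and 11.2 in t(1;14) on average. For the brighter OAZ3 probe, at base 451, they were PAFAH1B1 (0.0802), TUBB (0.0808), HYKK (0.0814), CXCL16 (0.0847) and SIK3 (0.0864). That probe was saturated on 2 of 3 control and 2 of 3 oligospermic arrays, which narrows its difference. For the unsaturated probe at base 88, taken after the saturation was seen, the 5 genes were KPNA6 (0.0733), AKIRIN1 (0.0845), WDR64 (0.0921), HK1 (0.0935) and THAP6 (0.0993), of which 0 were among those of base 451. The list for OAZ3 thus depends on the probe. With 9 arrays in 3 groups, this measure mostly reflects the group means.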

How the data were processed

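Testis RNA was labelled by the authors with 1 dye, cyanine 3. A porcine Agilent array of custom design took the RNA, and Feature Extraction gave the spot values. The deposited intensity of each spot is background-subtracted by that software, and arrays were not yet normalized against each other. A deposited table of log2 values, quantile normalized by the authors over the 9 arrays, covers 38759 probes with all 22 member probes among them and served as an alternative.

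The log2 of each processed intensity was taken, followed by quantile normalization of all 9 arrays together. Tested probes had, in 1 or more groups, 2 or 3 arrays well above background without an outlier flag. Each comparison was fitted on its 6 arrays with limma 3.58.1 (R 4.3.3), with Benjamini-Hochberg adjustment over all probes tested. For a gene of a list, the probe of highest mean signal was used. The number of arrays limits the precision: the median SD within a group was 0.24 for controls, 0.18 for oligospermic and 0.13 for t(1;14), over 41105 probes. Symbols were updated through the RefSeq table of Sscrofa11.1, which with the file's own names gave names for 16020 probes.

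Named are all members, the other polyamine genes that passed against oligospermic or between oligospermic and control, the 5 genes most like SAT1 and OAZ3, and marker genes that a sentence rests on; other genes of the polyamine lists are named for completeness. The members and lists were chosen with earlier results of these data known. Deviations of arrays on the same slide correlated at 0.10 to 0.49 in the 3 comparisons, so the slide pairs the arrays; the replicate number is the slide in oligospermic against control only. Alternatives were other scaling, background correction, filters, values, blocks, models and thresholds, and leaving out each array.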

Additional observations from a re-analysis of the deposited data

How the results depend on the processing

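The number of differential member probes was 7 in t(1;14) against control, 6 against oligospermic and 0 in oligospermic against control. With the adjusted p alone it was 14 and 17 of 22 in the t(1;14) comparisons, where 31.2% and 49.1% of all probes passed. With a log2 difference of at least 1 it was 11 in both. The share of all probes was not counted at that setting, so nothing is read from it. With 75th percentile scaling the counts stayed at 7 and 6, but the SAT1 probe at base 241 was no longer differential in either t(1;14) comparison (1.90 and 1.94) and the OAZ3 probe at base 88 newly was (-2.02 and -2.10). Leaving out 1 array gave 5 to 7 against control, 6 to 7 against oligospermic and 0 to 0 in the third. Of other polyamine genes, 7, 10 and 0 passed. In t(1;14) against control the number was 11 with the adjusted p raised to 0.05. It was 2 to 8 when 1 array was left out: 4 without t(1;14) array 1 and 2 without t(1;14) array 3. Against oligospermic it was 7 to 11, and in the third 0 to 0. The cause of these shifts was not tested.

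With the replicate number as a block, 6, 6 and 0 member probes were differential and 3, 7 and 0 other polyamine genes passed, in the order t(1;14) against control, against oligospermic, and oligospermic against control. Of all probes, 2033, 2730 and 0 were differential in these fits, and 13%, 30.3% and 0% passed. In the t(1;14) comparisons the replicate numbers do not pair the arrays. With the slide as a block the counts were 7, 6 and 0, and 8, 10 and 0. Of all probes, 2246, 2791 and 0 were differential in these fits, and 24.2%, 56% and 0% passed. ODC1 in t(1;14) against control and OAZ1 at base 343 against oligospermic no longer passed with the slide as a block. OAZ1 at base 874 against oligospermic and MTAP against control newly did. Over all alternatives, 359 of 408 values of single members, each by its brightest probe, kept their direction and side of the threshold, 31 no longer passed and 2 newly passed. The other 16, all in oligospermic against control, changed sign without passing in either fit, at values between -0.16 and 0.14. The median of all probes in t(1;14) against control was 0.14 with quantile and 0.16 with 75th percentile scaling. Saturation limits OAZ3 at base 451.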
